A study of Mus musculus with 12 samples.

Results

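The genes described here are 6 matrix metalloproteinases (Mmp2, Mmp7, Mmp9, Mmp13, Mmp14 and Mmp19) and the 4 tissue inhibitors of metalloproteinases (Timp1, Timp2, Timp3 and Timp4). They were chosen by name, with earlier results of these data known. Each was read from the 1 probe set that the platform annotation pairs with that symbol alone. All 10 were measured, among 19938 genes in all. The samples were livers of 12 C57Bl/6J mice that received an adenovirus by vein at 10 weeks of age and were studied fed, 7 days later. In 6 mice the virus encoded a short hairpin that targets Grb14 (sh Grb14), and in the other 6 a scrambled hairpin (sh scramble). Both groups therefore carried adenovirus, and uninfected livers were not analysed here. The adapter protein Grb14 is a known inhibitor of insulin receptor signalling. The labels give mice, not litters or days, so p-values set the difference between groups against the spread between these mice alone. Each liver gave 1 array, on which values are log2 expression after RMA, so a difference of 1 is a 2-fold change.

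Matrix metalloproteinases are zinc-dependent enzymes that cut collagens, elastin, laminins and other matrix proteins, as well as cytokines and receptors at the cell surface. Most are made as inactive proenzymes, and TIMP proteins block the active enzymes by binding in their catalytic cleft. In the liver they are made by stellate cells, macrophages, neutrophils, endothelial cells, biliary cells and, for some members, hepatocytes, and the collagenases and TIMP1 are known for their opposed parts in the build-up and resolution of fibrosis. Arrays measure messenger RNA, so neither enzyme activity nor inhibitor protein was assessed.

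The knockdown was checked first. Grb14 ranged from 8.02 to 8.44 (median 8.23) in sh Grb14 livers, against 10.08 to 10.25 (median 10.14) in sh scramble livers. The groups did not overlap, and the change was −1.91 (SE 0.059, limma adjusted p = 7.99e-14). Array medians over all genes lay between 7.67 and 7.74 in sh Grb14 livers and between 7.52 and 7.60 in sh scramble livers. Array sh scramble 4 stood apart: the summed level of 5 pancreatic acinar genes was 9.20 to 11.64 in the sh Grb14 livers and 9.63 to 11.59 in the other sh scramble livers, against 15.14 in sh scramble 4. Without this array, Mmp13 changed by 3.29 and Timp1 by 2.84, so the changes were as large without it. Leaving out the 4 arrays with the highest acinar level, a choice made after the data were seen, gave 3.21 for Mmp13 and 2.71 for Timp1, and 8 members higher and 1 lower, as in all 12 arrays.

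Of the 10 genes, 8 were higher and 1 was lower in sh Grb14 livers at a limma adjusted p under 0.05 over all genes, and Timp3 did not pass. Over all genes tested, 25.8% were higher and 39.5% lower by the same rule (65.3% in either direction). The groups did not overlap in 7 members that were higher and in 1 that was lower, where 20.3% and 20.8% of all genes did so (41.2% in either direction). At least 2-fold rises were found for 6 members (Mmp13, Timp1, Mmp7, Mmp2, Mmp14 and Mmp9), against 6.37% of all genes, and no member fell as far (2.65% of all genes did, 9.03% in either direction). The median change of the 10 genes was 1.09, and that of all genes was −0.10. The 5 metalloproteinases that rose did so at least 2-fold, while among the inhibitors only Timp1 did. With arrays centred on their medians, Mmp9 (0.93) and Mmp14 (0.95) rose less than 2-fold. So did Mmp9 after quantile normalization (0.98) and with the 4 arrays of highest acinar level left out (0.96).

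**Figure D1:**
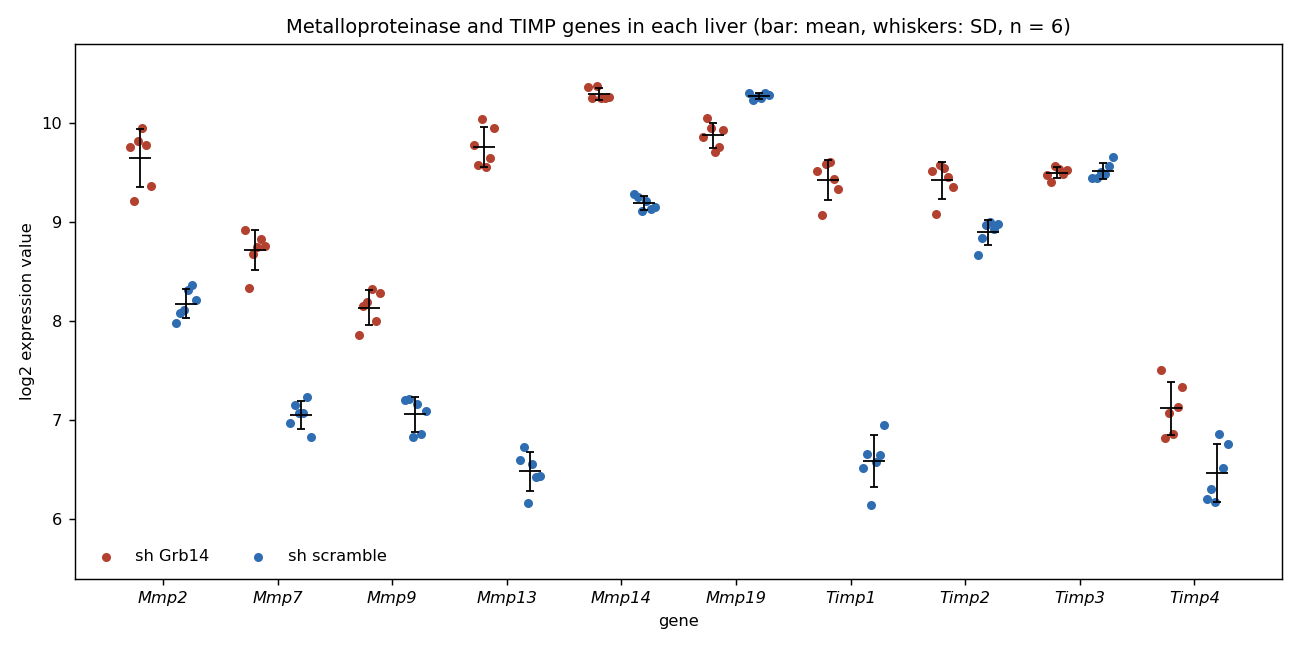
Log2 expression value (vertical axis) of the 10 genes in each of 12 livers, sh Grb14 in red to the left of sh scramble in blue, with the mean as a bar and the SD as whiskers (n = 6 each). The groups are apart for all genes except Timp3 and Timp4, and the widest gaps are those of Mmp13 (2.82) and Timp1 (2.11); Mmp19 is lower in sh Grb14 livers.

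The DNA just before the start of the genes is shown for the members with the largest rises, Mmp13, Timp1 and Mmp7. It is also shown for Mmp14, which rose less, and for Timp3, which did not pass. Sequences are from RefSeq on GRCm38.p6, 5′ to 3′ on the gene's strand (plus for all 5), from 100 bases before the annotated start to the base before it. Capitals mark TGACTCA or its reverse complement TGAGTCA, the letters that AP-1 proteins (Fos and Jun dimers) are known to bind, as well as TATAAA on the sense strand.
Mmp13, chr9:7272414-7272513: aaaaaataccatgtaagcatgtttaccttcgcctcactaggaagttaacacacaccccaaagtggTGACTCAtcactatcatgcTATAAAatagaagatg
Mmp7, chr9:7691990-7692089: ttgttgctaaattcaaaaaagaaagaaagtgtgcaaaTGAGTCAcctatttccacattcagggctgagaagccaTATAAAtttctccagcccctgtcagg
Mmp14, chr14:54431498-54431597: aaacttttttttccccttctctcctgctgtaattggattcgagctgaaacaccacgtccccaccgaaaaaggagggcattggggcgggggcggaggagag
Timp1, chrX:20870066-20870165: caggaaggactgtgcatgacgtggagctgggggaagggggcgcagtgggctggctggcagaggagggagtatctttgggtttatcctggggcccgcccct
Timp3, chr10:86300312-86300411: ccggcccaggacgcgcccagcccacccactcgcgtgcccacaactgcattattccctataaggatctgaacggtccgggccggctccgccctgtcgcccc

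The search covered windows of 250 bases before to 50 after each annotated start, of which 7 members had 8. TGACTCA or its reverse complement stood in those of 2 members, Mmp13 (its first base at position −35) and Mmp7 (−63), and in 5.2% of 32851 windows of the same length. TATAAA stood in windows of the same 2 members, at −16 in Mmp13 and at −123 and −26 in Mmp7, and in 8.32% of all windows. A variant with 1 other letter, TGAGTAA (reverse complement TTACTCA), was found in Timp1 from position 27 on, and in 2.68% of all windows. The 30 bases around it are given because Timp1 held neither of the other motifs.
Timp1, chrX:20870181-20870210: cggtgggtggaTGAGTAAtgcgtccaggaa
The windows of Mmp14, Timp2, Timp3 and Timp4 held none of these letters, nor did the window of Mmp7's other annotated start. Mmp2, Mmp9 and Mmp19 had no window. A match describes the letters alone.

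Of the 10 genes, Mmp13 rose most. Mmp13, the interstitial collagenase that rodents use in the liver, ranged from 9.55 to 10.04 (median 9.71) in sh Grb14 livers, against 6.16 to 6.73 (median 6.50) in sh scramble livers. Every sh Grb14 liver lay above every sh scramble liver. The change was 3.27 (SE 0.099), 9.67-fold higher (limma adjusted p = 6.21e-14). Mmp7, matrilysin, a small enzyme without the hemopexin domain and best known from epithelia, ranged from 8.34 to 8.92 (median 8.76) in sh Grb14 livers, against 6.83 to 7.23 (median 7.08) in sh scramble livers. It rose by 1.66 (SE 0.090), 3.16-fold, with no overlap (limma adjusted p = 6.38e-11).

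Both gelatinases, which cut denatured collagen and type IV collagen, rose. Mmp2, gelatinase A, a product of stellate cells and fibroblasts, ranged from 9.21 to 9.96 (median 9.77) in sh Grb14 livers, against 7.98 to 8.37 (median 8.16) in sh scramble livers. Its change was 1.47 (SE 0.11), 2.77-fold (limma adjusted p = 4.66e-09). Its spread was wider in the sh Grb14 group, with an SD of 0.29 against 0.15 in sh scramble livers (n = 6 each), a difference that was not tested. Mmp9, gelatinase B, which neutrophils store and macrophages secrete, ranged from 7.87 to 8.33 (median 8.17) in sh Grb14 livers, against 6.83 to 7.22 (median 7.13) in sh scramble livers. It rose by 1.08 (SE 0.091), 2.11-fold (limma adjusted p = 1.93e-08). Neither gelatinase overlapped between the groups.

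Mmp14, a membrane-anchored enzyme that cuts collagen and activates the Mmp2 proenzyme, was the least variable of the genes that rose. It ranged from 10.25 to 10.38 (median 10.26) in sh Grb14 livers, against 9.11 to 9.28 (median 9.19) in sh scramble livers. The rise of 1.10 (SE 0.044), 2.15-fold, had a limma adjusted p of 1.57e-12. Mmp19, a secreted enzyme that acts on basement membrane proteins, was the member that fell. Its values were 9.71 to 10.06 (median 9.89) in sh Grb14 livers, against 10.24 to 10.30 (median 10.27) in sh scramble livers. All 6 sh Grb14 livers lay below the lowest sh scramble liver, by a gap of 0.18, and the change was −0.40 (SE 0.052, limma adjusted p = 4.29e-06).

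Of the 4 inhibitors, Timp1 rose most. Timp1, a soluble inhibitor that is induced in injured and fibrotic liver, ranged from 9.07 to 9.61 (median 9.48) in sh Grb14 livers, against 6.15 to 6.96 (median 6.61) in sh scramble livers. The change of 2.84 (SE 0.11) was 7.17-fold (limma adjusted p = 1.69e-12), with no overlap. Timp2, which besides inhibition links Mmp14 to the Mmp2 proenzyme at the cell surface, ranged from 9.08 to 9.58 (median 9.48) in sh Grb14 livers, against 8.67 to 8.999 (median 8.95) in sh scramble livers. It rose by 0.52 (SE 0.080), 1.44-fold (limma adjusted p = 2.59e-05). The lowest sh Grb14 liver was 0.081 above the highest sh scramble liver.

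Timp3, which stays bound to the matrix and also inhibits ADAM17, had values of 9.40 to 9.57 (median 9.51) in sh Grb14 livers, against 9.45 to 9.66 (median 9.50) in sh scramble livers. The groups overlapped, and the change of −0.018 (95% interval −0.12 to 0.081) did not pass (limma adjusted p = 0.743). With each array centred on its median, which put the median change of all genes at −0.25 in place of −0.10, Timp3 changed by −0.16 and passed (limma adjusted p = 0.00346, range over all alternatives 0.00346 to 0.970). Timp4, the member of the family best known from the heart, ranged from 6.82 to 7.51 (median 7.10) in sh Grb14 livers, against 6.18 to 6.86 (median 6.41) in sh scramble livers. It rose by 0.65 (SE 0.14, limma adjusted p = 0.000562), although only 4 of 6 sh Grb14 livers lay above all sh scramble livers.

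By a two-sided exact permutation test of each member over all 924 assignments of the mice, p was 0.00216, the smallest that these assignments can give, for all members except Timp4 (exact p = 0.00649) and Timp3 (exact p = 0.680). The sh scramble means of Mmp13 (6.49), Timp1 (6.59) and Timp4 (6.47) lay close to the lower quartiles of those arrays (6.29 to 6.42). No detection calls were available, and a fold against a level this near the floor of an array can be understated.

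**Figure D2:**
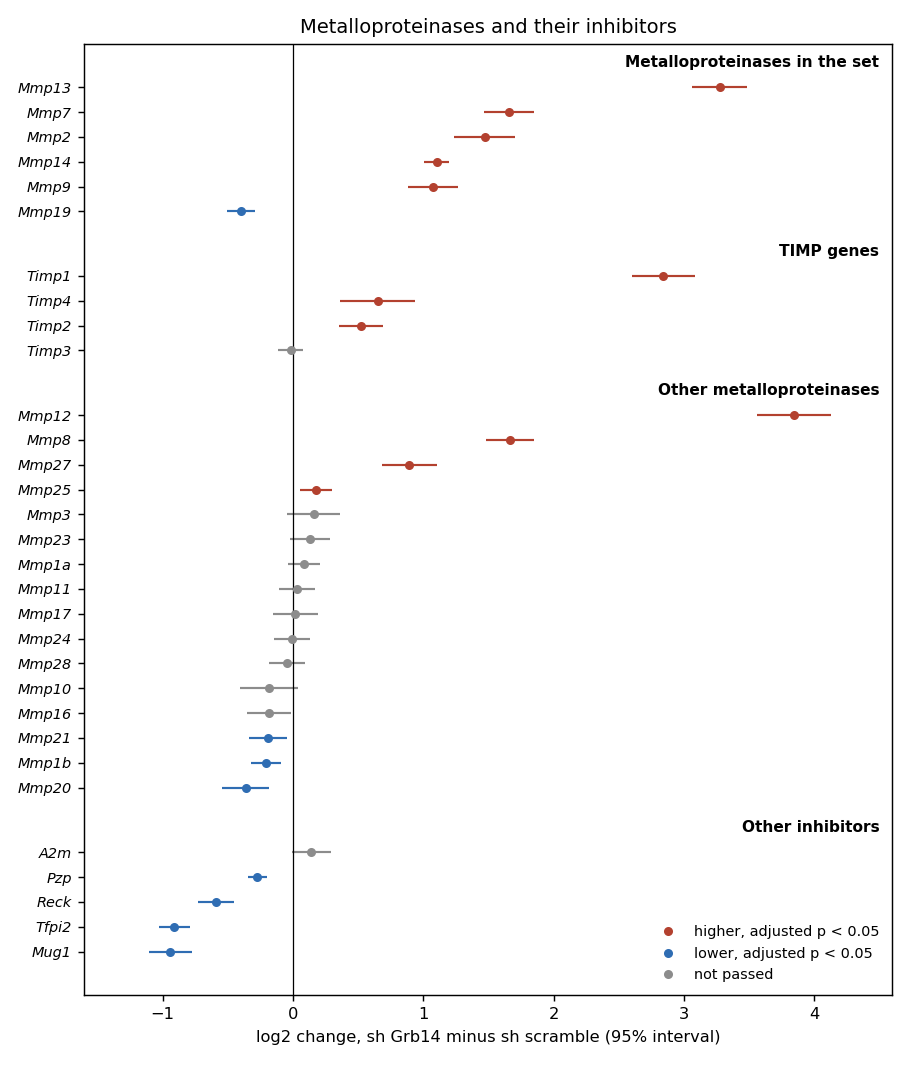
Log2 change, sh Grb14 minus sh scramble (horizontal axis), of 22 metalloproteinases, 4 TIMP genes and 5 other inhibitors, as points with 95% intervals from limma, red where higher and blue where lower at an adjusted p under 0.05. Mmp12 (3.84), Mmp13 (3.27) and Timp1 (2.84) lie farthest to the right, and 4 of the 5 other inhibitors lie left of 0.

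Livers within a group also differed from each other. In the sh Grb14 group, liver 2 was the lowest of the 6 in 7 of 10 members (Mmp2, Mmp7, Mmp14, Timp1, Timp2, Timp3 and Timp4) and the highest in Mmp19. Its deviation from the group mean was −0.44 for Mmp2, −0.38 for Mmp7, −0.36 for Timp1 and −0.34 for Timp2. The same liver had the highest Grb14 value of its group (8.44). Its summed level of recruited macrophage markers was 12.46, against 12.74 to 12.98 in the other sh Grb14 livers. That of stellate cell and fibroblast markers was 12.66, against 12.95 to 13.11. Kupffer cell (12.97) and sinusoidal endothelial (12.79) sums were also the lowest in liver 2. Those of neutrophils (10.90), T cells (11.49), cholangiocytes (10.86) and mesothelial cells (9.32) were not, and that of hepatocytes (15.98) was the highest of the group. What set liver 2 apart was not tested. Without liver 2, Mmp2 changed by 1.56, Timp1 by 2.91 and Timp2 by 0.59. In the sh scramble group, liver 3 was the lowest in 5 members (Mmp9, Mmp13, Mmp14, Timp1 and Timp4).

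**Figure D3:**
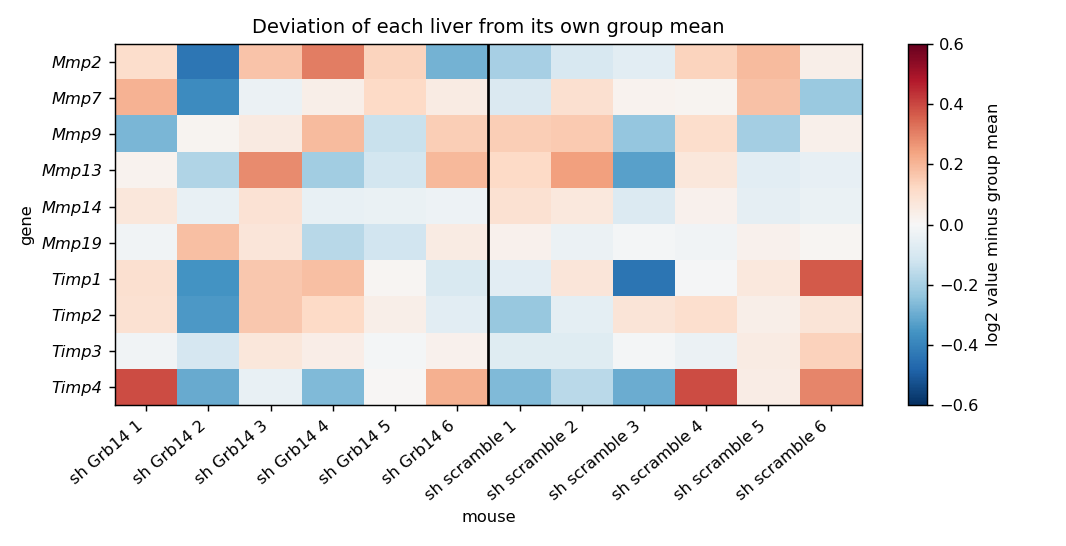
Deviation of each liver's log2 value from the mean of its own group (colour scale, −0.6 to 0.6), for 10 genes (rows) and 12 mice (columns, sh Grb14 left of sh scramble). The column of sh Grb14 2 is blue for most genes, with the deepest value in Mmp2 (−0.44).

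The other metalloproteinases on the array gave a mixed picture. Of 16 measured, 4 were higher, 3 lower and 9 did not pass, so their share of rises was near the 25.8% of all genes. The split depended on scaling: with arrays centred on their medians 3 were higher and 7 lower, and after quantile normalization 6 were higher and 2 lower. With dim genes filtered out 9 were tested, of which 4 were higher and 0 lower, so that no fall remained. Mmp12, the macrophage elastase, ranged from 9.84 to 10.34 (median 10.08) in sh Grb14 livers, against 5.68 to 6.70 (median 6.26) in sh scramble livers. It rose by 3.84 (SE 0.13, limma adjusted p = 2.84e-13), and its sh scramble mean of 6.26 lay under the lower quartiles of those arrays (6.29 to 6.42). Mmp8, the neutrophil collagenase, ranged from 6.95 to 7.58 (median 7.30) in sh Grb14 livers, against 5.47 to 5.73 (median 5.65) in sh scramble livers. It rose by 1.66 (SE 0.088, limma adjusted p = 4.51e-11), and its sh scramble values lay under the lower quartiles of those arrays. Mmp27 rose by 0.89 (SE 0.10), Mmp25 by 0.18 (SE 0.057), while Mmp20, known from tooth enamel, fell by 0.36 (SE 0.085) and Mmp21 by 0.19 (SE 0.070). Mmp25 did not pass with arrays centred on their medians (0.028, limma adjusted p = 0.639) or with the 4 arrays of highest acinar level left out (0.15, adjusted p = 0.116). Mmp21 did not pass after quantile normalization (−0.11, limma adjusted p = 0.0649) or without sh Grb14 1, 3 or 6 or sh scramble 6, each left out alone (−0.17 to −0.16, adjusted p up to 0.0661). Of these 16 genes, 7 averaged below the lower quartile in sh Grb14 livers and 10 in sh scramble livers. Of all 22 metalloproteinases measured, the members included, 9 were higher, 4 lower and 9 did not pass. Their median change was 0.11.

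Mmp13 and Mmp7 lie at the ends of a run of 10 metalloproteinase genes on chromosome 9, a stretch looked at after the values were seen. In RefSeq's order these are Mmp13, Mmp12, Mmp1b, Mmp3, Mmp1a, Mmp10, Mmp8, Mmp27, Mmp20 and Mmp7. Along it 5 genes were higher, 2 lower and 3 did not pass, where 25.8% of all genes were higher and 39.5% lower. Next to Mmp13 and Mmp12, Mmp1b changed by −0.21 (SE 0.055, limma adjusted p = 0.00381), Mmp3 by 0.16 (SE 0.096, adjusted p = 0.152) and Mmp1a by 0.082 (SE 0.058, adjusted p = 0.217). Mmp10 changed by −0.18 (SE 0.10, limma adjusted p = 0.131). Mmp10 passed with centred arrays (−0.33), with array weights (−0.22) and without sh Grb14 5 (−0.25), and Mmp3 (0.25) and Mmp1a (0.19) passed after quantile normalization. The mean levels of Mmp1b, Mmp1a, Mmp3, Mmp10 and Mmp20 were below the lower quartiles in both groups.

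**Figure D4:**
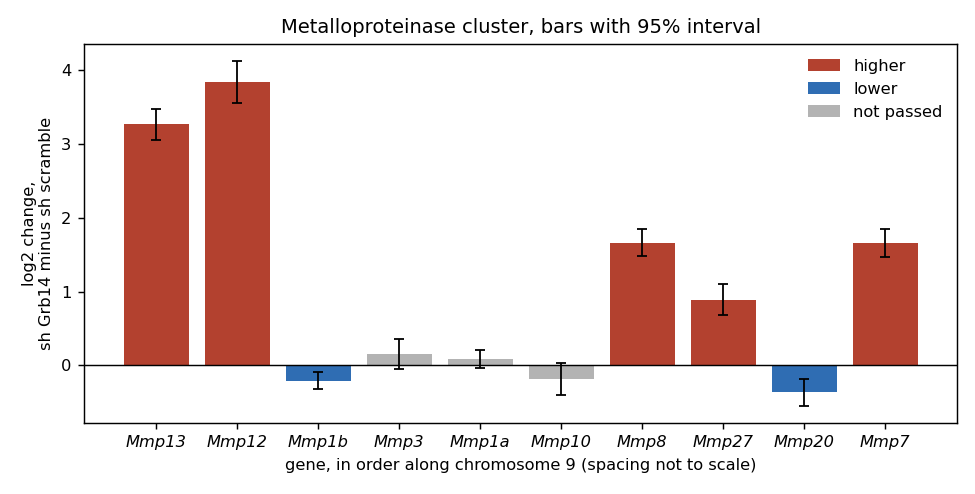
Log2 change, sh Grb14 minus sh scramble (bars, vertical axis), with 95% intervals, of the 10 metalloproteinase genes in their order on chromosome 9, red where higher, blue where lower and grey where the test was not passed. Mmp13 and Mmp12 stand at one end (3.27 and 3.84) and Mmp7 (1.66) at the other, with 3 genes between them that did not pass.

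Among 5 measured inhibitors outside the TIMP family, 4 fell and 1 did not pass, against 39.5% of all genes that were lower. Their median change was −0.59. Reck, a membrane-anchored inhibitor of Mmp2, Mmp9 and Mmp14, ranged from 7.97 to 8.30 (median 8.02) in sh Grb14 livers, against 8.56 to 8.85 (median 8.62) in sh scramble livers, and fell by 0.59 (SE 0.066). Mug1, a plasma protein that traps proteases and is made by hepatocytes, fell by 0.94 (SE 0.078), and Tfpi2, a Kunitz-type inhibitor that also blocks plasmin, fell by 0.91 (SE 0.055). In the same livers 6 of 7 hepatocyte genes were lower, with summed levels of 15.81 to 15.98 in sh Grb14 livers and 16.26 to 16.32 in sh scramble livers, and their part in these falls was not tested.

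Genes that act upstream of the enzymes, in proenzyme activation, moved in both directions. Of 10 measured, 4 rose, 5 fell and 1 did not pass, where 25.8% of all genes were higher and 39.5% lower. Plat, tissue plasminogen activator, ranged from 9.68 to 11.03 (median 10.75) in sh Grb14 livers, against 6.39 to 6.61 (median 6.44) in sh scramble livers, and rose by 4.13 (SE 0.17). Plau, urokinase, rose by 2.18 (SE 0.080), and Plgrkt, a plasminogen receptor, by 1.89 (SE 0.089). Plg, plasminogen itself, which hepatocytes secrete, ranged from 12.84 to 13.05 in sh Grb14 livers, against 13.27 to 13.40 in sh scramble livers, and fell by 0.38 (SE 0.037). F12, a coagulation factor that can activate plasminogen, fell by 0.57 (SE 0.054), and Pcsk6, a proprotein convertase, by 0.50 (SE 0.060). The median change of this list was −0.10, the same as that of all genes.

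The related ADAM and ADAMTS proteases mostly rose: 12 of 14 were higher, 1 lower and 1 did not pass. Their median change was 0.66, and with centred arrays 10 were higher and 2 lower. For this list and the next, the shares over all genes were 25.8% higher and 39.5% lower. Adam8, a leukocyte sheddase, rose by 2.12 (SE 0.11), Adam19 by 1.12 (SE 0.059) and Adamts12 by 1.05 (SE 0.068), while Adam9 fell by 0.21 (SE 0.033). Among surface partners and receptors 6 of 9 rose and 2 fell (5 and 3 with centred arrays). Cd63, a tetraspanin that binds TIMP1, ranged from 8.56 to 9.41 in sh Grb14 livers, against 6.12 to 6.82 in sh scramble livers, and rose by 2.45 (SE 0.14). Cd44, the hyaluronan receptor that docks Mmp9, ranged from 9.53 to 9.88 in sh Grb14 livers, against 7.43 to 7.93 in sh scramble livers, and rose by 1.98 (SE 0.082). Cldn1, a tight junction protein, fell by 0.49 (SE 0.048).

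Of the cytokines and transcription factors known to induce these genes, most of those measured were higher. Spp1, Runx2 and Nfkb1 were listed but not measured. Of 8 cytokines measured 6 rose and 2 did not pass, with a median change of 1.17 (6 rose and 1 fell with centred arrays). The 2 were Osm (0.17, limma adjusted p = 0.139) and Il6 (−0.091, adjusted p = 0.121), both below the lower quartile on average in both groups. Il1a rose by 1.58 (SE 0.086), Tgfb1 by 1.52 (SE 0.055) and Tnf by 1.36 (SE 0.074). Of 11 AP-1, ETS and other inducing factors 10 rose and 1 did not pass (9 rose and 1 fell with centred arrays). Their median change was 0.71. For the cytokines and these factors alike, the shares over all genes were 25.8% higher and 39.5% lower. Jun, a component of AP-1 dimers, ranged from 9.89 to 10.04 in sh Grb14 livers, against 8.32 to 8.78 in sh scramble livers. It rose by 1.39 (SE 0.066), its partner Fos by 0.97 (SE 0.091) and Ets2 by 1.52 (SE 0.059). Protein binding was not measured, and the part of these cytokines and factors in the changes of the members was not tested.

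The matrix proteins that serve as substrates rose or did not pass. Of 15 measured 12 were higher, 0 lower and 3 not past the test, where 25.8% of all genes were higher and 39.5% lower. Their median change was 0.88, and with centred arrays 10 were higher and 2 lower. Tnc, tenascin C, a matrix protein of wounds, rose by 2.54 (SE 0.094). Nid1, nidogen of basement membranes, ranged from 11.42 to 11.62 in sh Grb14 livers, against 8.99 to 9.14 in sh scramble livers, and rose by 2.48 (SE 0.044). Vcan, the proteoglycan versican, rose by 2.07 (SE 0.081). These lists were chosen with earlier results of these livers known.

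Markers of cells that can make the enzymes moved as well. In whole liver, a change in the number of cells of a type and a change in RNA per cell cannot be told apart. For the counts of these markers, the shares over all genes were 25.8% higher and 39.5% lower. All 7 recruited macrophage markers rose, with summed levels of 12.46 to 12.98 in sh Grb14 livers and 10.35 to 10.69 in sh scramble livers. Gpnmb, a glycoprotein of lipid-laden macrophages, rose by 4.79 (SE 0.15). Of 10 neutrophil markers 7 rose and 3 did not pass, with summed levels of 10.52 to 11.12 in sh Grb14 livers and 9.71 to 9.92 in sh scramble livers. Of that list 5 genes averaged below the lower quartile in sh scramble livers. Of 6 Kupffer cell markers 2 rose and 4 did not pass (12.97 to 13.27 in sh Grb14 livers and 11.81 to 12.30 in sh scramble livers). The sum rests on Cd5l, a protein that macrophages secrete, which averaged 12.66 in sh Grb14 livers and 10.87 in sh scramble livers and rose by 1.79. Folr2 rose by 0.23 with overlapping groups, and did not pass with centred arrays (limma adjusted p = 0.419), after quantile normalization (adjusted p = 0.216) or with most single livers left out. T cell markers rose in 5 of 6 and fell in 1 (11.46 to 11.89 in sh Grb14 livers and 9.92 to 10.06 in sh scramble livers). Cd3g rose by 2.95 (SE 0.076) and Cd8a by 1.79 (SE 0.071), while Cd4 fell by 0.66 (SE 0.053) with no overlap.

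Stellate cell and fibroblast markers split, with 4 of 9 higher and 4 lower, where 25.8% of all genes were higher and 39.5% lower. Acta2, the actin of activated stellate cells, rose by 2.46 (SE 0.11), and Tagln, a partner of contractile actin, by 1.51 (SE 0.074). Des, among the 4 higher, had overlapping groups, 8.63 to 9.17 in sh Grb14 livers and 7.66 to 9.88 in sh scramble livers. Its limma adjusted p was 0.0227 and its exact permutation p 0.0541. Colec11 fell by 1.10 (SE 0.050) and Ecm1 by 1.01 (SE 0.076), both markers of quiescent stellate cells. The summed levels overlapped, at 12.66 to 13.11 in sh Grb14 livers and 12.56 to 12.78 in sh scramble livers. Only sh scramble 6 (12.78) reached the sh Grb14 range, and the other sh scramble livers lay at 12.56 to 12.64. Sinusoidal endothelial markers split evenly, 4 higher and 4 lower. Of 6 cholangiocyte markers 3 rose and 3 did not pass (10.85 to 11.13 in sh Grb14 livers and 10.43 to 10.67 in sh scramble livers). Of 5 mesothelial markers 4 fell and 1 did not pass (9.18 to 9.62 in sh Grb14 livers and 9.58 to 9.79 in sh scramble livers). The part of any of these cell types in the changes of the metalloproteinase and TIMP genes was not tested.

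**Figure D5:**
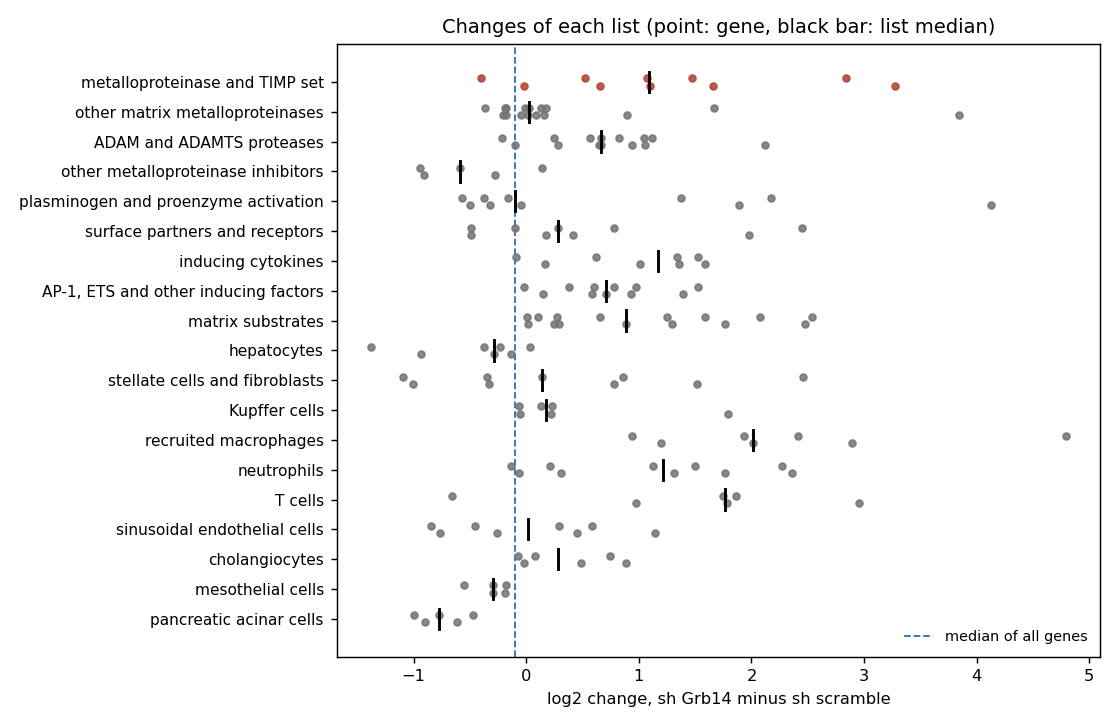
Log2 change, sh Grb14 minus sh scramble (horizontal axis), of each measured gene (points) in the metalloproteinase and TIMP set (red) and in related lists (grey), with each list's median as a black bar and the median of all genes (−0.10) as a dashed line. The set's median is 1.09, that of recruited macrophage markers 2.02, and that of other metalloproteinase inhibitors −0.59.

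The genes whose profiles over the 12 livers were most like those of the 3 members with the largest changes were found by the root mean square difference between gene-centred log2 values. For Mmp13 these were Slamf7 (0.19), Gzmb (0.20), Gm12250 (0.20), Anln (0.21) and Nkg7 (0.21). For Timp1 they were Lgals3 (0.15), Plp2 (0.18), Hmox1 (0.18), Ms4a4c (0.19) and Itga4 (0.19). For Mmp7 they were Gla (0.12), Aspm (0.12), Hilpda (0.13), Sulf2 (0.13) and Aaas (0.13). Since the groups are far apart, this measure mostly picks genes with a change of similar size: Lgals3 changed by 2.80 and Slamf7 by 3.23.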

How the data were processed

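The deposited table holds log2 values of 35556 probe sets on 12 arrays (2.74 to 14.24). Per the labels' protocols, biotin-labelled targets were made from 100 ng of Trizol-extracted liver RNA for Affymetrix whole-transcript arrays. RMA and Partek are named in the submitters' processing notes, without versions. The sources used here name no batches. Of the probe sets, 21789 had 1 symbol. Where a symbol had several, the brightest on average over the 12 arrays stood for it, which gave 19938 genes. Each member had 1 probe set.

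All genes were fitted with limma 3.58.1 in R 4.3.3 (lmFit, eBayes with an intensity trend, 12 arrays, no covariate, no filter), sh Grb14 minus sh scramble, with Benjamini-Hochberg adjustment over all genes and a threshold of 0.05. The fit was tested on simulated data with few changed genes and no shift between arrays, so that test does not bear on the scaling. The exact permutation test is two-sided. A summed level is the log2 of the sum of the unlogged values of a marker list in a liver. The 6 arrays of each group limit the precision. From each list at most the 3 largest rises and falls past the test are named, as well as Mmp12 and Mmp8. Genes named after their values were seen are Mmp3, Mmp1a, Mmp10, Mmp25, Osm, Il6, Des, Syn1, Syn2 and Syn3. Members and lists were chosen with earlier results of these data known.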

Additional observations from a re-analysis of the deposited data

Results flagged for a closer look

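Within groups of 6 livers, a value was picked out when its gap to the nearest other liver exceeded Dixon's 95% critical value as a share of the group's range, which chance does in about 1 of 20 groups. Of 144 groups of values tested, 5 were picked out, and none was a metalloproteinase or TIMP gene of the set. Mmp27 was low in sh scramble 4 (5.72, others 6.14 to 6.23), the array with the highest pancreatic acinar signal. Adam9 was high in sh Grb14 1 (10.95, others 10.83 to 10.88). Gpnmb was low in sh Grb14 2 (10.56, others 11.22 to 11.53), the liver that was lowest in 7 of the 10 members. Muc1, a cholangiocyte marker, was high in sh Grb14 4 (9.68, others 8.73 to 9.03), and Ms4a4c was high in sh Grb14 3 (9.95, others 9.35 to 9.52).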

How the results depend on the processing

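Under 19 alternatives (dim genes filtered out, 2 other scalings, no intensity trend, array weights, the mean of a gene's probe sets, each liver left out, and, added after seeing the data, 4 arrays left out), all members except Timp3 kept their direction and their side of the threshold. Mmp13 ranged from 3.13 to 3.35, Timp1 from 2.695 to 2.92 and Mmp19 from −0.55 to −0.36. Timp3 passed with centred arrays (−0.16) and turned to 0.0022 without sh Grb14 2 and to 0.0096 without sh scramble 6, not past the test. Leaving out 1 liver, it ranged from −0.032 to 0.0096. The cause of these turns was not tested. Mmp1a turned to −0.065 with centred arrays. Without dim genes, 4 of 9 other metalloproteinases passed in place of 7 of 16, 4 higher and 0 lower. The count over all genes lay between 11103 (dim genes filtered out, 15073 tested) and 16802. Higher genes made up 39.5% of all calls, but 23.0% with centred arrays. No paired analysis was possible because the labels give no replicate numbers shared between the groups. The number of arrays and the low signal of dim probe sets limit the precision.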

Other observations

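According to the RefSeq table, 3 TIMP genes lie within a synapsin gene, a relation looked at after the values were seen: Timp1 within Syn1, Timp3 within Syn3 and Timp4 within Syn2. The synapsin genes encode synaptic vesicle proteins. Syn1 ranged from 7.91 to 8.42 (median 8.19) in sh Grb14 livers, against 7.26 to 7.44 (median 7.36) in sh scramble livers, and changed by 0.83 (SE 0.078, limma adjusted p = 8.16e-08), where Timp1 changed by 2.84. Syn3 changed by −0.23 (SE 0.076, limma adjusted p = 0.0157), where Timp3 changed by −0.018. Syn3 did not pass with the 4 arrays of highest acinar level left out (limma adjusted p = 0.0642). Syn2 changed by −0.041 (SE 0.067, limma adjusted p = 0.592), where Timp4 changed by 0.65. Syn2 passed with arrays centred on their medians (−0.19, limma adjusted p = 0.0150). Signal shared between a TIMP gene and the gene around it was not tested.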
